A study of Homo sapiens with 9 samples.

Results

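The transcriptome of MP41 cells 48 h after transfection of synthetic miR-16 was compared with that of cells given the control mimic miR-CTR for the same time. MP41 is a uveal melanoma (UM) line with a mutated GNA11, the gene of a G protein subunit that drives many of these eye tumors. Both oligonucleotides were transfected at 66 nM with a lipid reagent, and the library of cells collected before transfection (0 h), which belongs to the miR-CTR series, served as a further reference. The comparison thus held 2 of the 9 libraries of the series, the others being the 0 h library and the pairs at 6, 12, and 24 h, and all 14839 genes of the deposited table. Each condition had 1 library. There were no replicates, so no p-value was computed and the spread between cultures stayed unmeasured. A standard error (SE) below comes from read counts alone and covers counting error only. The table codes its time points as T0, T1, T2, T4, and T5, and these codes were paired with 0, 6, 12, 24, and 48 h in rising order.

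miR-16 belongs to a family of microRNAs that share a seed, the short stretch at the 5′ end that pairs with messenger RNAs, mostly in their 3′UTRs. Pairing brings the Argonaute complex to the messenger RNA, which is then deadenylated, degraded, or translated less. The family is best known as a brake on the cell cycle that acts on G1 cyclins, CDC25A, WEE1, and CHEK1, and its loss with the locus on chromosome 13 is a hallmark of chronic lymphocytic leukemia. A messenger RNA can be lower after a microRNA because it is bound, or because the cells that were changed by the bound messages express it less, and a single time point does not separate these routes.

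The sequences that define the comparison are those of both oligonucleotides, and they are shown because every seed match below is derived from them. Seeds (bases 2 to 8) are in capitals. The mature miR-16 came from RefSeq, and the control sequence from the supplementary oligonucleotide list of the study. In that list the miR-16 sequence stands in the row of the biotinylated control and the other sequence in the row of biotinylated miR-16. These rows were taken as swapped, and the transfected miR-CTR was assumed to have the same sequence as the biotinylated one, so all results on control matches rest on these assumptions.
hsa-miR-16-5p: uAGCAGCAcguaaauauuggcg
control sequence: uUGUACUAcacaaaaguacug
RefSeq (GRCh38.p14) places the mature miR-16 at chr13:50049027-50049048 on the reverse strand (MIR16-1, within DLEU2) and at chr3:160404754-160404775 on the forward strand (MIR16-2, within SMC4). The same 7 bases form the seed of 6 other mature human microRNAs, and those of miR-15a, miR-15b, and miR-195 are shown.
hsa-miR-15a-5p: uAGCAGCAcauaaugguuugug
hsa-miR-15b-5p: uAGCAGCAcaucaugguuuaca
hsa-miR-195-5p: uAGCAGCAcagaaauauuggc

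The deposited values are normalized log2 levels, and 1 read was worth the same amount for every gene of a library, so that reads could be recovered. The miR-16 library at 48 h held 21920000 reads and the miR-CTR library 27370000, within the range of the 9 libraries (20280000 to 27370000). Their median genes had 540 and 674 reads. All 10 melanocytic markers examined, PMEL, TYRP1, and MITF among them, were present in both libraries at levels between 9.65 and 17.49 (log2), whereas none of 8 epithelial markers and 1 of 8 leukocyte markers (CD68, at most 5.86) were among the genes of the table. Of other cell types, the table held 4 of 8 fibroblast markers (at most 8.57), 3 of 5 retinal pigment epithelium markers (at most 9.66), and 1 of 7 endothelial markers, EMCN, at 10.68 with miR-16 and 10.9 with miR-CTR. EMCN was at 9.93 before transfection. The part of such genes in the differences was not tested.

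At 48 h, 1330 genes (8.96%) had a level more than 0.5 lower on the log2 scale with miR-16 than with miR-CTR, and 1541 genes (10.4%) had one more than 0.5 higher. The size of 0.5 is the threshold used by the study. The median difference over all genes was 0.00, and the central 90% of genes lay between −0.68 and 0.74. More than 1 log2 unit separated the libraries for 176 lower and 357 higher genes. Weakly expressed genes contributed unequally. Of the 3710 genes in the lowest 25% of mean expression, 482 (13%) were below −0.5 and 892 (24.0%) above 0.5, against 848 (7.62%) and 649 (5.83%) of the 11129 others. The order of both counts was thus reversed outside the lowest 25%, and 1 read more or less moves such genes most. Their median counting SE was 0.296, against 0.066 above them. Among the 11997 genes with at least 100 reads in either 48 h library, 969 were below −0.5 and 828 above 0.5, and for each of these the 95% counting interval excluded 0. The read minimum and the threshold together nearly ensure this, so it adds no support to the calls. Genes named below for the size of their difference come from these 11997.

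**Figure D1:**
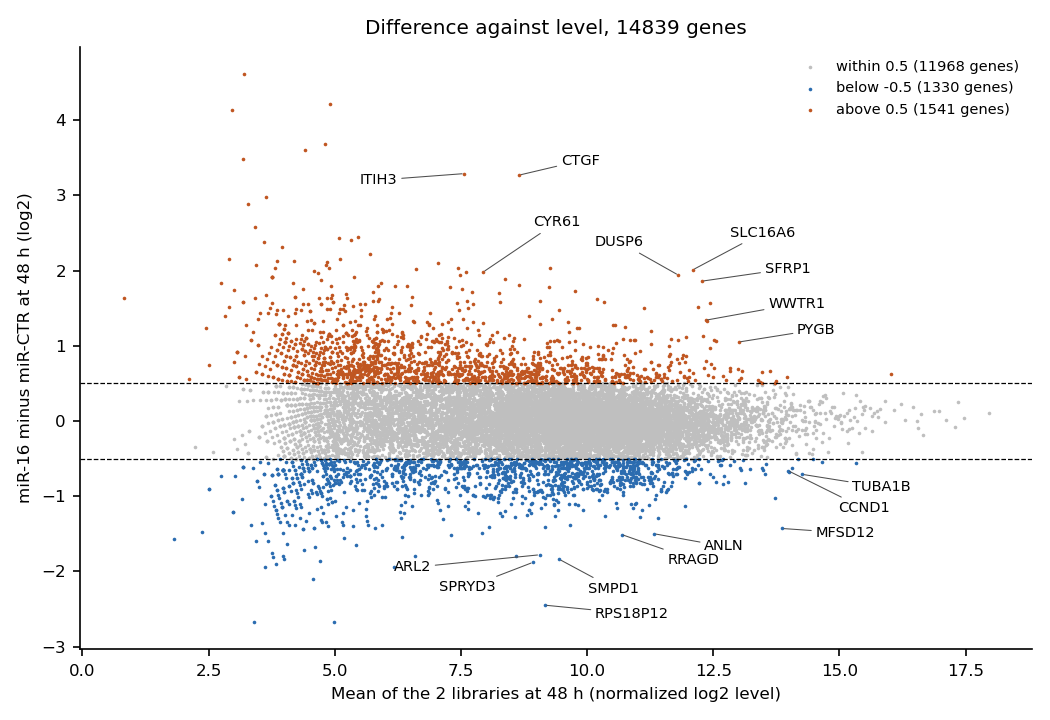
Level with miR-16 minus level with miR-CTR at 48 h (log2, vertical axis) against the mean of both libraries (log2, horizontal axis), 1 point per gene, with dashed lines at −0.5 and 0.5. The blue points are the 1330 genes below −0.5 and the orange points the 1541 genes above 0.5, and the orange points crowd at low levels. CTGF and ITIH3 stand apart above, and SPRYD3, SMPD1, and ARL2 below.

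The 15 lowest differences included single genes of the lysosome, of small GTPases, and of cytokinesis. As whole lists, lysosomal genes (8.0%) and ARF and ARL GTPases (8.7%) were not below −0.5 more often than all genes (8.96%). Of the 12 protein-coding genes among the 15, 7 held a 3′UTR seed match to miR-16, against 29.3% of all genes with a 3′UTR. SPRYD3 (ENSG00000167778.8, chromosome 12 from 53064316 to 53079420), which encodes a SPRY domain protein, had a level of 9.30 at 0 h, 9.87 with miR-CTR, and 7.99 with miR-16 (1096 and 240 reads at 48 h), a difference of −1.88 ± 0.10 (SE), or 3.68-fold. SMPD1 (ENSG00000166311.9, chromosome 11 from 6390431 to 6394998), the lysosomal acid sphingomyelinase, stood at 9.73 at 0 h, 10.37 with miR-CTR, and 8.53 with miR-16 (−1.84 ± 0.085). ARL2 (ENSG00000213465.7, chromosome 11 from 65014113 to 65022184), a small GTPase that acts in tubulin folding, had levels of 9.40, 9.95, and 8.17 in the same order (−1.78 ± 0.097). In all 3 genes the miR-16 library lay under the 0 h library and the miR-CTR library over it. RRAGD, a Rag GTPase of the mTORC1 pathway at the lysosome, stood at 10.57 at 0 h, 11.44 with miR-CTR, and 9.93 with miR-16 (−1.51 ± 0.054). MFSD12, a transporter of melanosomes and lysosomes with a role in pigmentation, had 28711 reads with miR-CTR and 8601 with miR-16, which corresponds to levels of 14.58 and 13.15 (−1.43 ± 0.018). For ANLN, the anillin of the cytokinetic ring, the levels were 12.41 at 0 h, 12.08 with miR-CTR, and 10.58 with miR-16 (−1.50 ± 0.043).

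GADD45B, a stress-induced gene, did not follow this form. It stood at 7.93 at 0 h and 7.69 with miR-16 but at 9.49 with miR-CTR (−1.80 ± 0.11), so that nearly all of the difference lay between the miR-CTR and the 0 h library. HAS2, a hyaluronan synthase, was above its 0 h level of 6.95 in both, at 9.87 with miR-CTR and 8.46 with miR-16 (−1.41 ± 0.090). COL25A1, a transmembrane collagen, likewise stood at 4.30 at 0 h, 7.15 with miR-CTR, and 5.21 with miR-16 (−1.94 ± 0.27), with 165 and 34 reads. The helicase PIF1 (−1.52 ± 0.17), the dynein intermediate chain DYNC1I1 (−1.49 ± 0.14), and C20orf26 (−1.42 ± 0.29) complete the 12 protein-coding genes among the 15 lowest. The other 3 were RPS18P12 (−2.45 ± 0.10), TUBBP5 (−1.54 ± 0.24), and a symbol with a clone-based name that was not matched to the annotation. RPS18P12 and TUBBP5 are pseudogenes that can share reads with the parent genes, and their values are uncertain. Of the 15, 1 held a match to the control sequence. All 15 were also lower with miR-16 at 24 h, 12 of them by more than 0.5.

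Among the 15 highest differences were single genes of matricellular and matrix proteins, signalling inhibitors, and a transporter. As whole lists, solute carriers (12.4%) and WNT pathway genes (12.1%) were above 0.5 at shares near that of all genes (10.4%). Feedback genes of the ERK pathway were above it (33.3%). CTGF (ENSG00000118523.5, chromosome 6 from 131948176 to 131951373), a secreted matricellular protein and widely used YAP output gene, had a level of 10.67 at 0 h, 7.02 with miR-CTR, and 10.29 with miR-16 (151 and 1184 reads at 48 h), a difference of 3.27 ± 0.12, or 9.65-fold. Its relative CYR61 stood at 10.55, 6.95, and 8.93 in the same order (1.98 ± 0.14). In both genes the miR-16 library lay between the 0 h and the miR-CTR library, closer to 0 h for CTGF. ITIH3, a heavy chain of the inter-alpha-trypsin inhibitors that bind hyaluronan, had 8.45 at 0 h, 5.92 with miR-CTR, and 9.21 with miR-16 (3.29 ± 0.18). SLC16A6, a monocarboxylate transporter family member, had the same level of 13.10 at 0 h and with miR-16 and 11.09 with miR-CTR (2.01 ± 0.033), and the pseudogene SLC16A6P1 differed by 1.89 ± 0.12.

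DUSP6 (ENSG00000139318.7, chromosome 12 from 89347232 to 89353271), the phosphatase that turns off ERK, stood at 12.02 at 0 h, 10.84 with miR-CTR, and 12.78 with miR-16 (1.94 ± 0.036). SFRP1, a secreted WNT antagonist, stood at 12.53, 11.35, and 13.21 (1.86 ± 0.030). For both, the 0 h level lay between the levels at 48 h. MMP11, a stromelysin (2.04 ± 0.087), DOK5, an adaptor of receptor tyrosine kinases (2.03 ± 0.16), and IGFBP5, which binds insulin-like growth factors (1.98 ± 0.15), were higher with miR-16 than at 0 h by 1.63, 1.48, and 2.04. PRICKLE1, of planar cell polarity (2.02 ± 0.22), and TMEM178B (1.94 ± 0.16) were within 0.33 of the 0 h level with miR-16 and more than 2 log2 units under it with miR-CTR, at −2.11 and −2.27. The largest value, 4.21 ± 0.49 for PLCE1-AS1, rested on 7 reads with miR-CTR and 121 with miR-16, and its reads cannot be told from those of the gene on the other strand, as strand use in counting is not given in the sources used here. The pseudogenes AC144530.1 (2.22 ± 0.30) and RPL37P2 (2.10 ± 0.19) are uncertain for the reason given above. Of the 15 highest, 2 held a 3′UTR match to miR-16 and 1, CTGF, a match to the control sequence. All 15 were higher at 24 h too, 14 of them by more than 0.5.

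To relate the differences to the seeds, 3′UTRs of GENCODE version 29 (GRCh38) were searched for exact matches. A 7mer-m8 pairs with bases 2 to 8 (TGCTGCT for miR-16, TAGTACA for the control sequence). An 8mer adds an A opposite base 1 (TGCTGCTA and TAGTACAA), a 7mer-A1 is the 8mer without its first base (GCTGCTA and AGTACAA), and a 6mer is what they share (GCTGCT and AGTACA). Windows from the 3′UTRs of the genes with the lowest differences and of reported targets of the family are shown, so that the type and the spacing of matches can be read beside the values. Each is written 5′ to 3′ along the messenger RNA with the match in capitals, and all lie in the 3′UTR of the named gene. The positions are those of the capitals.
SPRYD3, 7mer-m8, chr12:53065359-53065365 (reverse strand): ctggttgtgtgaaccagtTGCTGCTgtca
SPRYD3, 7mer-A1, chr12:53065479-53065485 (reverse strand): cgtgagcaccctatctcaGCTGCTAttcg
SMPD1, 7mer-m8, chr11:6394667-6394673 (forward strand): agggtgaaaaagcccaaaTGCTGCTgtgg
SMPD1, 7mer-m8, chr11:6394938-6394944 (forward strand): cagccaggaaccctgtacTGCTGCTgcga
ARL2, 8mer, chr11:65021976-65021983 (forward strand): tcctccaccccagcctgcTGCTGCTActgc
ARL2, 8mer, chr11:65022119-65022126 (forward strand): gcggggaggagctgctacTGCTGCTAccga
COL25A1, 7mer-m8, chr4:108809574-108809580 (reverse strand): aatgtataaaattgcctaTGCTGCTtatt
DYNC1I1, 7mer-m8, chr7:96098070-96098076 (forward strand): gatttactagaagaacatTGCTGCTcctt
ANLN, 7mer-A1, chr7:36453410-36453416 (forward strand): aaagtaaactgttatgaaGCTGCTAtgta
MYB, 8mer, chr6:135218634-135218641 (forward strand): caaatgaaaaacgtttttTGCTGCTAtggt
MYB, 8mer, chr6:135218661-135218668 (forward strand): ggtcttagcctgtagacaTGCTGCTAgtat
CDC25A, 8mer, chr3:48158264-48158271 (reverse strand): gcgctgtggtactggggcTGCTGCTAttta
WEE1, 8mer, chr11:9589146-9589153 (forward strand): ggtattgccttgtgaattTGCTGCTAtttt
AMOT, 7mer-m8, chrX:112775604-112775610 (reverse strand): tgaaggatttccttttaaTGCTGCTtttg
CCND3, 7mer-m8, chr6:41935320-41935326 (reverse strand): ctgtgtgattgacagcttTGCTGCTgaag
CHEK1, 8mer, chr11:125655358-125655365 (forward strand): gaatcctggtgaatatagTGCTGCTAtgtt
CCND1, 8mer, chr11:69653315-69653322 (forward strand): tatctctttcacattgttTGCTGCTAttgg
CCNE1, 8mer, chr19:29824024-29824031 (forward strand): accagtgcgtgctcccgaTGCTGCTAtgga
In ARL2, 5 matches of the longest 3 types, some of them overlapping, lay within a 3′UTR of 329 bases, and SPRYD3 had 4 in 1516 bases. Both matches of SMPD1 lay in a 3′UTR of 391 bases. RRAGD and MFSD12 had no such match in the annotated 3′UTRs used. In the coding sequence, however, RRAGD held 1, MFSD12 6, and AMOT 19 matches of the 8mer or 7mer-m8 type, with overlapping ones counted.

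Genes with a longer match to miR-16 had lower differences. Of the 12007 protein-coding genes with an annotated 3′UTR, the 600 with an 8mer had a median of −0.15, the 2479 whose best match was a 7mer-m8 −0.08, and the 439 with a 7mer-A1 −0.06. The medians were 0.00 for the 2103 genes with a 6mer only and 0.02 for the 6386 genes with none. Below −0.5 were 110 genes with an 8mer (18.3%), 276 with a 7mer-m8 (11.1%), and 57 with a 7mer-A1 (13%), against 135 with a 6mer only (6.42%) and 424 with none (6.64%). The share grew with the number of matches of the longest 3 types, from 10.9% with 1 to 15.2% with 2 and 17.8% with 3 or more. A match in the coding sequence alone went with a median of 0.00 and 7.41% below −0.5. These shares compare genes within a single pair of libraries. Of the 1002 called genes below −0.5 with a 3′UTR, 443 (44.2%, 95% Wilson interval 41.2 to 47.3, which reflects the number of genes only) held a match of the longest 3 types, compared with 2842 of 9954 genes within the thresholds (28.6%) and 233 of 1051 genes above 0.5 (22.2%).

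As long 3′UTRs hold more matches of any kind, the genes were also split by 3′UTR length into 4 classes of nearly equal size. In each class, genes with a miR-16 match were below −0.5 more often than genes without, at 19.7% against 7.08% in the shortest class, 15.4% against 7.91% and 13.6% against 5.79% in the middle ones, and 9.93% against 4.40% in the longest.

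Matches to the control sequence went with the opposite sign. The 266 genes with an 8mer to it had a median of 0.12, the 687 with a 7mer-m8 0.03, and the 799 with a 7mer-A1 0.10, whereas the 8538 genes with no match were at −0.03. Above 0.5 were 18% of the genes with an 8mer, 10.8% with a 7mer-m8, 13.4% with a 7mer-A1, 9.09% with a 6mer only, and 7.80% of those with none. The 7mer-m8 share was thus near that of the 6mer. Among the called genes above 0.5, 229 of 1051 (21.8%, interval 19.4 to 24.4) held a control match of the longest 3 types, against 103 of 1002 genes below −0.5 (10.3%). In every class of 3′UTR length, genes with a control match were above 0.5 more often than genes without (28.2% against 8.15% in the shortest, 11.5% against 7.71% in the longest). Split by both, 383 of 2732 genes with a miR-16 match only were below −0.5 (14%) and 169 above 0.5 (6.19%), while 43 of 966 genes with a control match only were below −0.5 (4.45%) and 165 above 0.5 (17.1%). The 786 genes with both kinds had a median of −0.01, with 7.63% below and 8.14% above. For the 7523 genes with neither, these shares were 6.86% and 8.68%. Against 0 h, the median gene with a miR-16 8mer stood at −0.19 with miR-16 and −0.02 with miR-CTR, and the median gene with a control 8mer at −0.04 with miR-16 and −0.20 with miR-CTR. For the control 7mer-m8 the median was −0.14 with either mimic, and for its 7mer-A1 it was −0.07 with miR-16 and −0.14 with miR-CTR.

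Genes above 0.5 that held a control 8mer included SEC63, FAS, NRAS, and CAV2, and 3′UTR windows of FAS and CAV2 are shown with the match in capitals.
FAS, chr10:89014780-89014787 (forward strand): aatgtaatcagtgtatgtTAGTACAAatgt
CAV2, chr7:116506387-116506394 (forward strand): aggcagacagttttgcttTAGTACAAtagt
CAV2, chr7:116507168-116507175 (forward strand): atgttacttctgatacttTAGTACAAtttc
NRAS, the RAS GTPase, stood at 11.65 at 0 h, 10.55 with miR-CTR, and 11.27 with miR-16 (0.72 ± 0.046). FAS, a death receptor, stood at 9.11, 8.05, and 8.72 (0.67 ± 0.11). In both genes the 48 h libraries lay under 0 h, and miR-CTR lay lower. CAV2, of caveolae, was instead close to its 0 h level of 9.27 with miR-CTR (9.18) and above it with miR-16 (10.42, a difference of 1.24 ± 0.068).

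**Figure D2:**
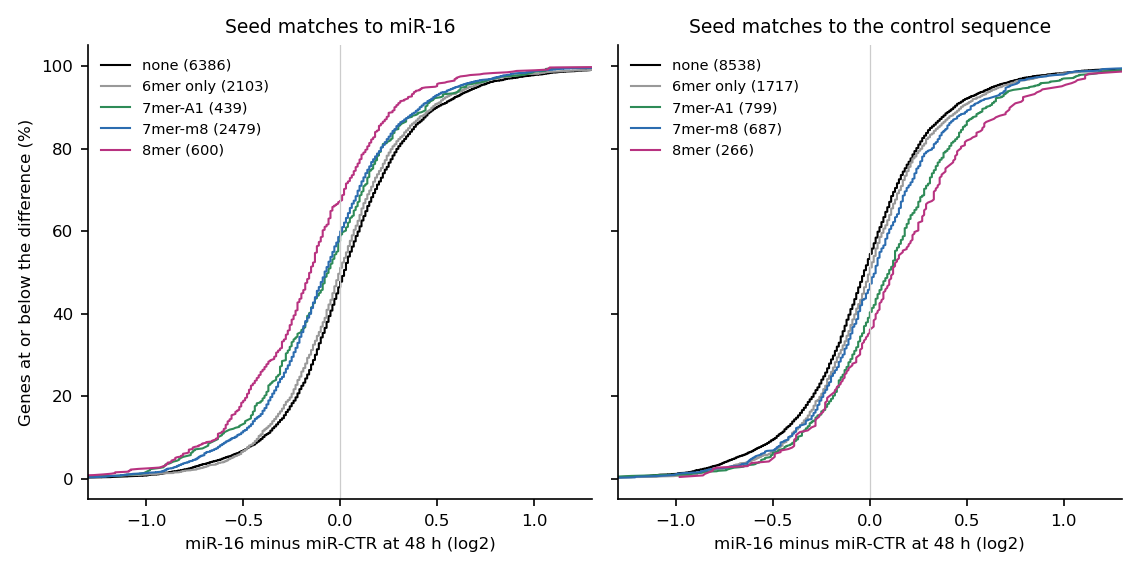
Share of genes (%, vertical axis) at or below a given difference between miR-16 and miR-CTR at 48 h (log2, horizontal axis), by the best 3′UTR match to miR-16 (left) or to the control sequence (right), with the number of genes in brackets. On the left the 8mer curve (600 genes, median −0.15) runs to the left of the curve of genes without a match (median 0.02). On the right the 8mer curve (266 genes, median 0.12) runs to the right of it (median −0.03).

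Of 20 measured genes from a list of reported targets of the miR-15/16 family, 15 were below −0.5 and none above 0.5, with a median of −0.78. The list includes targets that the study itself took up from these libraries (AMOT, SPRYD3, and ARL2 among them), so its direction is not independent evidence. MYB, a transcription factor, stood at 6.12 at 0 h, 5.63 with miR-CTR, and 3.53 with miR-16 (57 and 10 reads at 48 h), a difference of −2.10 ± 0.46. CDC25A, the phosphatase that activates CDK2, stood at 10.69, 10.36, and 8.98 (−1.38 ± 0.075). WEE1, the kinase that holds CDK1 inactive, stood at 9.77 at 0 h and 8.73 with miR-16 (−1.27 ± 0.083), and with miR-CTR it was 0.23 above 0 h. The levels of AMOT, an angiomotin that retains YAP at junctions, were 11.04 at 0 h and 9.73 with miR-16 (−1.27 ± 0.059), and with miR-CTR it was at −0.04 against 0 h. In these 4 genes the miR-16 library was the lowest of the 3, and the miR-CTR library lay within 0.49 of 0 h. Of the G1 cyclins, CCND3 stood at 9.88, 9.45, and 8.26 (−1.19 ± 0.098), and CCNE1 at 8.13, 7.83, and 7.20 (−0.63 ± 0.15). CCND1 took another course, since it stood at 13.53 at 0 h, 14.31 with miR-CTR, and 13.65 with miR-16 (−0.66 ± 0.016), with 23810 and 12164 reads. Its miR-16 level was 0.12 above 0 h. Also past the threshold were E2F7 (−0.99 ± 0.12), CHEK1 (−0.81 ± 0.054), FGFR1 (−0.74 ± 0.13), PPM1D (−0.59 ± 0.054), and CDC27 (−0.54 ± 0.040). All 15 held a 3′UTR match, and so did 4 of the 5 within the threshold. Those 5 included CDK6 (0.10), BCL2 (−0.12), VEGFA (−0.47), and BMI1 (−0.08).

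Cell cycle genes were lower with miR-16 from the G1/S regulators to the mitotic apparatus. The 6 lists for the G1/S machinery, checkpoint kinases, E2F and MYB factors, DNA replication, mitosis, and DNA repair joined to 202 genes, of which 119 were below −0.5 and 3 above 0.5, with a median of −0.66. Of all genes, 8.96% were below −0.5 and 10.4% above 0.5. Only 29 of these 119 genes (24.4%) held a miR-16 match in the 3′UTR, a share under that of all genes with a 3′UTR (29.3%) and above that of the other genes of these lists (14 of 83, 16.9%).

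Among 23 measured G1/S cyclins, CDKs, and their inhibitors, 9 were below −0.5 and 2 above 0.5 (median −0.31). Besides the cyclins above, CCNE2 differed by −1.11 ± 0.088, the p107 gene RBL1 by −0.81 ± 0.10, and CKS1B, a CDK subunit, by −0.61 ± 0.073. The CDK4 and CDK6 inhibitors diverged. CDKN2C (p18) was lower, at 9.76 at 0 h, 9.21 with miR-CTR, and 7.93 with miR-16 (−1.28 ± 0.11), and CDKN2D (p19) too (−0.81 ± 0.20), whereas CDKN2B (p15) stood at 7.68, 7.19, and 8.14 (0.95 ± 0.14). CDKN1C (p57) differed by 0.54 ± 0.14. Of 17 checkpoint genes, 9 were below −0.5 and 1 above (median −0.59). CLSPN, the claspin that brings CHEK1 to ATR, stood at 10.64 at 0 h, 9.67 with miR-CTR, and 8.51 with miR-16 (−1.16 ± 0.091), and PKMYT1, the relative of WEE1, at 10.47, 10.20, and 9.10 (−1.10 ± 0.074). CDC25B, another activator of CDKs, differed by −0.69 ± 0.041.

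Of 19 E2F, MYB, and DREAM factors, 8 were below −0.5 and none above (median −0.47). The activators E2F1 (−1.05 ± 0.060) and E2F2 (−1.12 ± 0.083) and the repressor E2F8 (−1.18 ± 0.18) had no miR-16 match in the 3′UTR, whereas MYBL1 (−1.09 ± 0.096) held 2 matches of the 8mer type there. MYBL2, the B-MYB of the G2/M program, stood at 12.17 at 0 h, 11.66 with miR-CTR, and 10.89 with miR-16 (−0.77 ± 0.041).

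DNA replication genes were below −0.5 in 33 of 48 cases, with none above 0.5 and a median of −0.68. The origin factor MCM10 stood at 10.94 at 0 h, 10.38 with miR-CTR, and 9.26 with miR-16 (−1.12 ± 0.070), and DTL, a substrate receptor of the CRL4 ubiquitin ligase, at 11.66, 11.42, and 10.32 (−1.10 ± 0.049). RRM2, the ribonucleotide reductase subunit that makes deoxynucleotides, was at 12.83, 11.94, and 11.01 (−0.93 ± 0.039). GINS2 (−1.09 ± 0.10), ORC6 (−0.99 ± 0.13), and FEN1 (−0.92 ± 0.059) were lower as well. Of the 33 genes, 7 held a miR-16 match.

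Of 57 mitosis and cytokinesis genes, 46 were below −0.5, none was above 0.5, and the highest difference was −0.20 (median −0.79). The mitotic kinase CDK1 stood at 11.64 at 0 h, 11.52 with miR-CTR, and 10.43 with miR-16 (−1.09 ± 0.047), and AURKB, the kinase of the chromosomal passenger complex, at 11.06, 11.20, and 10.22 (−0.98 ± 0.051). For both, the miR-CTR level was within 0.14 of 0 h. The kinetochore genes NUF2 (−1.02 ± 0.087) and CENPI (−0.99 ± 0.072) and the spindle kinesin KIF15 (−1.11 ± 0.096) differed by similar amounts. A match to miR-16 was held by 7 of the 46. Kinesins as a whole were below −0.5 in 17 of 37 cases (45.9%, against 8.96% of all genes) and above 0.5 in 4 (10.8%, against 10.4%), with a median of −0.47. KIF18B (−1.10 ± 0.083), KIFC1 (−0.94 ± 0.051), and KIF23 (−0.92 ± 0.037) of mitosis and the neuronal cargo motor KIF21A (−0.98 ± 0.041) were lower, and KIF6 was higher (0.96 ± 0.16). Of 14 tubulins, 6 were below −0.5 (42.9%, against 8.96% of all genes) and none above 0.5, with a median of −0.40. TUBA1B stood at 14.94 at 0 h, 14.62 with miR-CTR, and 13.91 with miR-16 (−0.71 ± 0.015). TUBA1C (−0.63 ± 0.016), TUBB4A (−0.58 ± 0.024), TUBB4B (−0.58 ± 0.030), TUBB (−0.56 ± 0.010), and TUBG1, the gamma-tubulin of the nucleating ring (−0.55 ± 0.046), followed. Tubulin paralogs are similar in sequence and can share reads. Among 17 dyneins and dynactins, DYNC1I1 and DYNLL2 (−0.65 ± 0.045) were below −0.5 (11.8%, against 8.96% of all genes) and none was above 0.5.

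DNA repair genes were below −0.5 in 15 of 39 cases (median −0.42), and 1 of the 15 held a miR-16 match. XRCC2, of homologous recombination, stood at 9.28 at 0 h, 8.95 with miR-CTR, and 7.68 with miR-16 (−1.27 ± 0.12). The Fanconi anemia genes FANCA (−1.03 ± 0.11), FANCM (−0.95 ± 0.089), and BRIP1 (−0.94 ± 0.074), and the nuclease EXO1 (−0.93 ± 0.039) were lower too. SMC4, the condensin subunit whose intron holds MIR16-2, differed by −0.82 ± 0.041, and DLEU2, the non-coding host of MIR16-1, by −0.86 ± 0.27. DLEU2 is annotated as antisense, and its value is uncertain without strand. These are the 2 of 9 measured host and neighbouring genes of the miR-15/16 loci that were below −0.5, and none was above 0.5 (median −0.05).

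**Figure D3:**
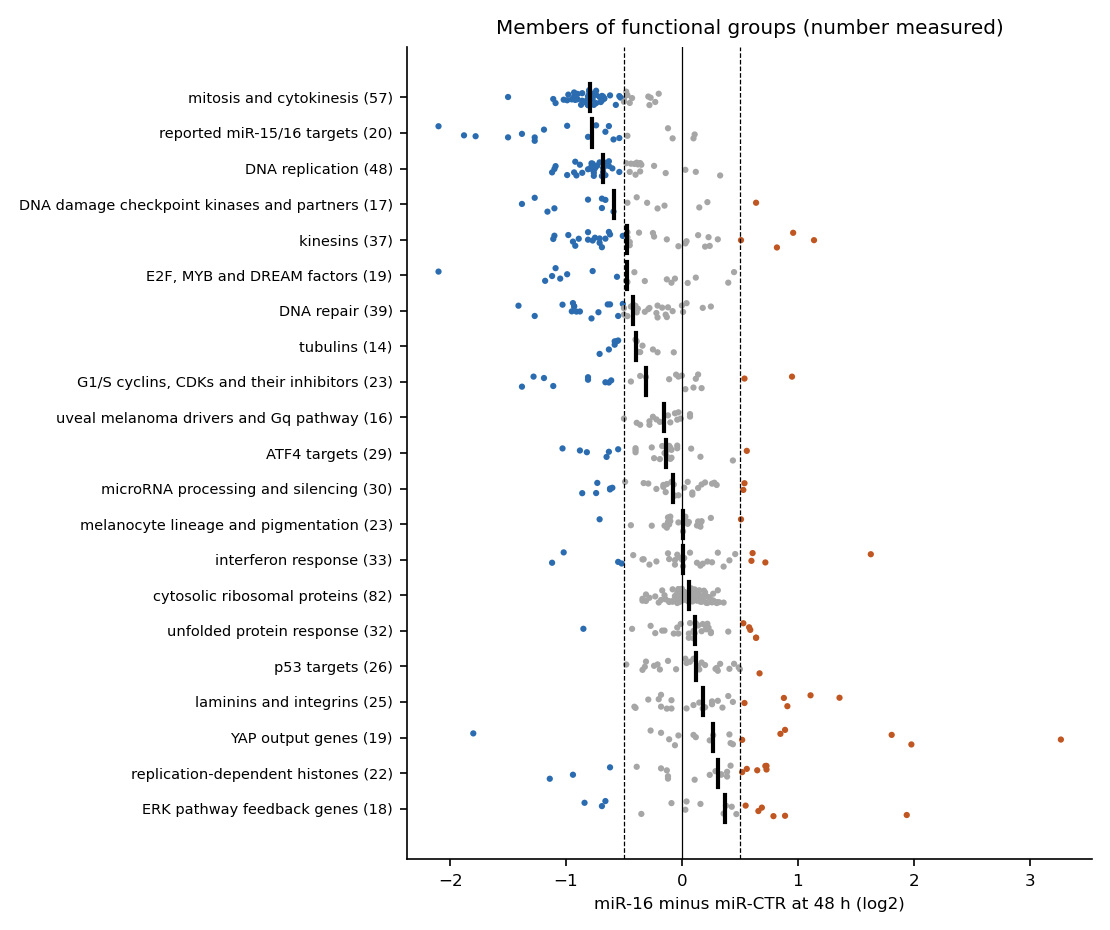
Difference between miR-16 and miR-CTR at 48 h (log2, horizontal axis) for the members of 21 functional groups, 1 point per gene and the median as a black bar, with the number of measured members in brackets and dashed lines at −0.5 and 0.5. The groups of the cell cycle sit at the top, from mitosis and cytokinesis (median −0.79) to G1/S regulators (−0.31), while ERK feedback genes (0.37) are at the bottom. Cytosolic ribosomal protein genes all lie within the dashed lines.

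Promoters were also searched for motifs of E2F, of DREAM and B-MYB complexes, and of TEAD factors. RefSeq promoters of GRCh38.p14 (250 bases before to 50 after the start) were found for 10283 genes (69.3%). All motifs were searched on both strands. The E2F motif was searched as TTCCCGC, and its other forms were TTGGCGC, next to it TTCGCGC, and finally TTGCCGC. The cell cycle genes homology region (CHR), through which DREAM and B-MYB complexes act, was searched as TTTGAA, and also in the form TTCGAA, which reads the same on both strands. The TEAD motif was GGAATG. The E2F motif occurred in 29 of 40 promoters of DNA replication genes (72.5%) and in 20.9% of all promoters. The CHR occurred in 38 of 49 promoters of mitosis genes (77.6%), in 3 of 40 promoters of replication genes (7.50%), and in 11.1% of all. The shares for replication and mitosis genes cover all listed members with a promoter, whatever their difference at 48 h. They describe the lists and not the comparison. Among the genes below −0.5, the CHR was found in 113 of 458 promoters without a miR-16 match (24.7%) and in 48 of 371 with one (12.9%), and the E2F motif in 29.9% and 24.0%. Windows around motifs in the promoters of the lowest members with one are shown, motif in capitals, on the strand of the gene.
DTL (E2F), chr1:212035741-212035747 (forward strand): gtgacgtcagtTTGGCGCggagtttggcg
GINS2 (E2F), chr16:85688979-85688985 (reverse strand): ctctcgccgtgGCGGGAAaacggcggccg
PRIM1 (E2F), chr12:56752341-56752347 (reverse strand): cggccgtgctgTTCCCGCcaattcctgtg
CDC6 (E2F), chr17:40287887-40287893 (forward strand): gccattcggatTTGGCGCgagcgcggctg
ANLN (CHR), chr7:36389842-36389847 (forward strand): tgaaattcaaaTTTGAAcggctgcagag
KIF15 (CHR), chr3:44761759-44761764 (forward strand): caagcgccaaaTTCAAAtttgcggccat
CDK1 (CHR), chr10:60778170-60778175 (forward strand): agtataataaaTTTGAActgtgccaatg
NUF2 (CHR), chr1:163321970-163321975 (forward strand): gaggcggcaagTTTGAAaagtgatgacg
GCGGGAA and TTCAAA are the motifs read from the other strand. A match of letters does not show that a factor binds, and a part of these factors in the differences was not tested.

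YAP output genes were more often higher than lower with miR-16. YAP and its partner TAZ are coactivators that the Hippo kinases keep out of the nucleus and that act through TEAD factors. Of 19 measured output genes, 6 were above 0.5 (31.6%, against 10.4% of all genes) and 1, GADD45B, was below −0.5 (5.26%, against 8.96%), with a median of 0.27. Beside CTGF and CYR61 these were the ecto-nucleotidase NT5E (8.47 at 0 h, 7.74 with miR-CTR, and 9.55 with miR-16, 1.81 ± 0.11), ARHGEF17 (0.89 ± 0.088), FJX1 (0.85 ± 0.14), and IGFBP3 (0.52). The median of the 19 genes against 0 h was −0.56 with miR-16 and −0.73 with miR-CTR, so that as a group they lay under 0 h with either mimic. Among 23 genes of the Hippo kinases, angiomotins, YAP, and TEADs, 2 were below −0.5 and 2 above 0.5 (8.7% each, near or under the shares of all genes, median 0.05). AMOT and the kinase LATS1 (−0.51 ± 0.093) were lower, and the TAZ gene WWTR1, at 12.08 at 0 h, 11.68 with miR-CTR, and 13.02 with miR-16 (1.34 ± 0.028), and WWC1 (0.73 ± 0.087) were higher. YAP1 itself differed by −0.45. A TEAD motif was found in 6 of 14 promoters of YAP output genes (42.9%), but in 1 of 4 promoters of those above 0.5 (25%, Wilson interval 4.56 to 69.9), which was CTGF. Its promoter held 3, shown with the motif in capitals.
CTGF (TEAD), chr6:131951536-131951541 (reverse strand): tttcagacggaGGAATGctgagtgtcaa
CTGF (TEAD), chr6:131951471-131951476 (reverse strand): gaaggtggggaGGAATGcgaggaatgtc
CTGF (TEAD), chr6:131951462-131951467 (reverse strand): gaggaatgcgaGGAATGtccctgtttgt
All genes above 0.5 held the TEAD motif in 101 of 885 promoters (11.4%), against 10.5% of all promoters.

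Feedback genes of the ERK pathway, which ERK induces and most of which dampen it, were above 0.5 in 6 of 18 cases and below −0.5 in 3 (median 0.37). These are 33.3% and 16.7%, against 10.4% and 8.96% of all genes. Next to DUSP6, SPRY4 stood at 11.46 at 0 h, 11.54 with miR-CTR, and 12.33 with miR-16 (0.79 ± 0.032), and the transcription factor ETV1 at 11.98, 11.19, and 12.08 (0.89 ± 0.036). DUSP4 differed by 0.69 ± 0.056. SPRED1, an inhibitor of RAS signalling with 2 miR-16 matches of the 8mer type, was instead lower at 10.26, 10.41, and 9.57 (−0.84 ± 0.065), as were LZTS1 (−0.69 ± 0.051) and CCND1. Matches to miR-16 were held by 2 of these 3 lower genes and by 3 of the 15 others, SPRY4 and ETV1 among them. Immediate early genes were above 0.5 in 7 of 23 cases (30.4%, against 10.4% of all genes) and below −0.5 in 2 (8.7%, against 8.96%), with a median of 0.12. At least 100 reads were found for 18 of the 23, and of those past 0.5 only for EGR1, JUN, MYC, and ATF3. Among the lowest 25% of all genes, 24% were above 0.5 and 13% below −0.5. EGR1 stood at 6.78 at 0 h, 5.84 with miR-CTR, and 6.78 with miR-16 (0.94 ± 0.22), JUN at 9.02, 7.21, and 7.94 (0.73 ± 0.14), and MYC at 12.24, 12.10, and 12.71 (0.61 ± 0.027), while ATF3 was lower (−0.88 ± 0.15). Among 31 growth factor receptors and members of the RAF, MEK, and AKT branches, 3 were below −0.5 (FGFR1, MAP2K1 at −0.58 ± 0.073, and FGFR4 at −0.55 ± 0.11). All 3 held a miR-16 match, as did 15 of the 28 others. Above 0.5 were 5, of which only ERBB3 (0.57 ± 0.031) and NRAS had at least 100 reads (median of the 31 genes −0.13). The shares below −0.5 and above 0.5 were 9.68% and 16.1%, against 8.96% and 10.4% of all genes.

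In the WNT pathway, 3 of 33 genes were below −0.5 (9.09%) and 4 above 0.5 (12.1%), near the shares of all genes (8.96% and 10.4%), with a median of 0.09. RNF43, a ubiquitin ligase that removes WNT receptors, stood at 7.89 at 0 h, 9.28 with miR-CTR, and 8.25 with miR-16 (−1.03 ± 0.10). AXIN2 (−0.73 ± 0.15) and DVL1 (−0.57 ± 0.066) were lower too, and these 3 genes held miR-16 matches, as did 10 of the 30 others. SFRP1, the receptor FZD2 (0.64 ± 0.13), and NKD2 (0.59 ± 0.13) were higher. TGF-beta and BMP response genes had 2 of 26 above 0.5 and none below (median 0.02), CTGF being the largest, with TGFBR1 (−0.20 ± 0.028) and BAMBI (−0.20 ± 0.033) close to 0.

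In most of the following groups, fewer members than among all genes passed 0.5. Of 23 melanocyte lineage genes, MREG was below −0.5 (−0.71 ± 0.061) and SLC24A5 above 0.5 (0.51 ± 0.019), with a median of 0.01, whereas the median of the group was 0.68 above 0 h with either mimic. TYRP1 (0.04 ± 0.0050) and PMEL (0.25 ± 0.0050), both of the melanosome, did not pass 0.5. None of 16 UM drivers and Gq pathway genes passed 0.5 in either direction (median −0.16), SF3B1 being at −0.01 ± 0.021 and PTK2 at −0.06 ± 0.022. Of 13 prognostic class genes, HTR2B (0.56 ± 0.080) and PTP4A3 (0.56 ± 0.040) were above 0.5 (15.4%, against 10.4% of all genes). Only FAS passed 0.5 among 26 p53 targets (median 0.12), with MDM2 at 0.41 ± 0.025 and GDF15 at 0.04 ± 0.011. Of 82 cytosolic ribosomal protein genes none passed 0.5, and they ranged from −0.34 to 0.36 (median 0.06). In the respiratory chain, 1 of 78 nuclear genes, ATP5D (−0.53 ± 0.048), and none of 13 mitochondrial genes did, with medians of −0.12 and 0.17. Ribosomal protein pseudogenes, in contrast, were below −0.5 in 17 and above 0.5 in 41 of 169 cases, from −2.45 to 4.14, with RPL13AP25 at 1.59 ± 0.15, RPL7P44 at 1.29 ± 0.17, RPL23P8 at 1.09 ± 0.18, and RPL34P18 at −0.90 ± 0.22. Such counts depend on how reads were split between near-identical copies.

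Apoptosis regulators of the BCL2 family were below −0.5 in 4 of 18 cases (22.2%, against 8.96% of all genes) and above 0.5 in 2 (11.1%, against 10.4%), with a median of −0.01. The pro-survival BCL2L2, with 4 miR-16 matches, stood at 10.69 at 0 h, 10.97 with miR-CTR, and 10.11 with miR-16 (−0.86 ± 0.054), and the BH3-only gene BMF at 10.05, 10.17, and 11.26 (1.09 ± 0.049). BCL2L12 (−1.01 ± 0.12), BNIP3 (−0.62 ± 0.060), PMAIP1 (−0.52 ± 0.18), and BOK (0.60 ± 0.12) also passed the threshold. In this family, 3 of the 4 lower genes held a miR-16 match, as did 6 of the 14 others, BMF among them. Genes of microRNA processing and silencing were below −0.5 in 6 of 30 cases (20.0%) and above 0.5 in 2 (6.67%), with a median of −0.08. A miR-16 match was held by 4 of the 6 lower genes and by 11 of the 24 others. MOV10, a helicase of the silencing complex, stood at 11.36, 11.73, and 10.87 (−0.86 ± 0.041). Lower too were the decapping enzyme DCP2 (−0.74 ± 0.054), the DICER1 partner TARBP2 (−0.73 ± 0.065), the deadenylase subunit CNOT6L (−0.62 ± 0.083), DICER1 itself (−0.62 ± 0.038), and AGO1 (−0.60 ± 0.050).

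In glycogen metabolism, 1 of 20 genes was below −0.5 and 2 were above 0.5 (median −0.04). The brain-type glycogen phosphorylase PYGB (ENSG00000100994.11, chromosome 20 from 25248069 to 25298014) stood at 13.26 at 0 h, 12.48 with miR-CTR, and 13.53 with miR-16 (6696 and 11193 reads at 48 h), a difference of 1.05 ± 0.022. Its miR-16 library was thus 0.27 above 0 h and its miR-CTR library 0.78 under it. In the 3′UTR, it held no miR-16 match of the longest 3 types and 1 control match of the 7mer-A1 type. GAA, the lysosomal glycogen-degrading enzyme, was at 0.62 ± 0.050, and EPM2A, the laforin phosphatase, at −0.73 ± 0.13. Glycolysis genes were below −0.5 in 3 of 23 cases (median −0.13), namely the glucose transporters SLC2A3 (−0.87 ± 0.14) and SLC2A1 (−0.67 ± 0.085) and PFKFB4 (−0.51 ± 0.13). Of 24 hypoxia response genes, 5 were below −0.5 (20.8%) and 1 above 0.5 (4.17%), with a median of 0.02. Among them were EGLN3 (−0.64 ± 0.097), PDK1 (−0.57 ± 0.071), and NDRG1 (0.65 ± 0.069). In cholesterol synthesis INSIG1 (−0.52 ± 0.048) and TM7SF2 (0.71 ± 0.088) passed 0.5 among 28 genes, while SQLE, the squalene epoxidase (−0.26 ± 0.018), did not. In fatty acid synthesis FASN (13.25 at 0 h, 13.84 with miR-CTR, and 13.27 with miR-16, −0.57 ± 0.019) and ELOVL5 (−0.58 ± 0.051) were below −0.5 among 17 genes.

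ATF4 targets, the genes of the amino acid response, were below −0.5 in 6 of 29 cases (20.7%, against 8.96% of all genes) and above 0.5 in 1 (3.45%, against 10.4%), with a median of −0.14. Both chains of the large neutral amino acid transporter were lower, SLC7A5 at 13.68 at 0 h, 14.23 with miR-CTR, and 13.20 with miR-16 (−1.03 ± 0.018), and SLC3A2 at 13.22, 13.38, and 12.73 (−0.65 ± 0.022). CHAC1 (−0.82 ± 0.10), PSAT1 (−0.63 ± 0.057), and VLDLR (0.56 ± 0.038) also passed 0.5. In the unfolded protein response 5 of 32 genes were above 0.5 (15.6%) and 1 below −0.5 (3.12%), with a median of 0.12. The sensor ATF6, with an 8mer and a 7mer-m8 to miR-16, differed by −0.85 ± 0.051, and XBP1 (0.64 ± 0.046), SEC63 (0.64 ± 0.045), KDELR3 (0.59 ± 0.043), EDEM3 (0.58 ± 0.058), and CANX (0.53 ± 0.017) were higher. Besides ATF6, 5 of the 31 other genes held a miR-16 match, CANX among them. Chaperones were below −0.5 in 4 of 29 cases (13.8%) and above 0.5 in 2 (6.9%), with a median of 0.04. A miR-16 match was held by 3 of the 4 and by 8 of the 25 others. DNAJB4 (−1.04 ± 0.083), DNAJC5 (−0.74 ± 0.050), CHORDC1 (−0.67 ± 0.050), and HSPA1A (−0.63 ± 0.072, a gene with a near-identical copy) were lower, and CRYAB (0.68 ± 0.036) and DNAJB5 (0.64 ± 0.11) higher. Interferon response genes, which transfected duplexes can induce, were below −0.5 in 4 and above 0.5 in 4 of 33 cases (12.1% each, near the 8.96% and 10.4% of all genes, median 0.01), with HERC6 (−1.12 ± 0.24) and DDX60 (−1.02 ± 0.12) lowest and IFITM1 (0.72 ± 0.22), IRF7 (0.61 ± 0.17), and OAS1 (0.60 ± 0.19) among those higher.

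Lysosomal genes were below −0.5 in 4 of 50 cases (8.0%, near the 8.96% of all genes) and above 0.5 in 2 (4.0%, against 10.4%), with a median of −0.06. Next to SMPD1, the sialin SLC17A5 (−0.71 ± 0.089), the calcium channel MCOLN1 (−0.67 ± 0.065), and alpha-galactosidase GLA (−0.58 ± 0.048) were lower, and the acid lipase LIPA, at 10.75 at 0 h, 10.59 with miR-CTR, and 11.52 with miR-16, was higher (0.93 ± 0.044). In the Rag GTPase and TFEB group of 28 genes, RRAGD and FNIP2 (−0.58 ± 0.040) were below −0.5 and LAMTOR3 (0.80 ± 0.083) above 0.5. Of 59 RAB GTPases, RAB12 was below −0.5 (−0.51 ± 0.082) and 4 were above 0.5, RAB3A (0.77 ± 0.086) and RAB20 (0.68 ± 0.078) among them. The ARF and ARL family of 23 had ARL2 as the lower of the 2 members below −0.5 and none above 0.5. Among the arginine methyltransferases and PRMT5 partners, PRMT5 alone of 13 passed 0.5, at 12.58 at 0 h, 11.73 with miR-CTR, and 12.26 with miR-16 (0.53 ± 0.031).

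Actin and focal adhesion genes were above 0.5 in 5 of 48 cases (10.4%, the share of all genes) and below −0.5 in 3 (6.25%, against 8.96%), with a median of 0.11. The filamin FLNA stood at 12.69 at 0 h, 11.12 with miR-CTR, and 12.21 with miR-16 (1.09 ± 0.036), so that miR-CTR was 1.57 under 0 h and miR-16 0.48 under it, and FLNC at 11.65, 11.26, and 12.05 (0.79 ± 0.035). DBN1, the drebrin, differed by 0.65 ± 0.033. The tropomyosin TPM3 (−0.83 ± 0.030) and LIMS1 (−0.58 ± 0.075), each with 2 miR-16 matches, were lower. Such matches were also held by 10 of the 45 genes not below −0.5. Laminins and integrins were above 0.5 in 5 of 25 cases (20.0%, against 10.4% of all genes) and below −0.5 in none (median 0.18), with ITGA7 (1.36 ± 0.15), LAMA4 (0.91 ± 0.053), and LAMA1 (0.54 ± 0.024). Of 27 collagens, 7 were above 0.5 (25.9%) and 5 below −0.5 (18.5%), with a median of 0.16. Only 12 of them had at least 100 reads, and among the lowest 25% of all genes these shares were 24% and 13%. Of the collagens past 0.5, COL25A1, COL9A1 (−0.77 ± 0.061), and COL11A2 (−0.67 ± 0.23) had at least 100 reads. Of 209 solute carriers, 33 were below −0.5 (15.8%) and 26 above 0.5 (12.4%), with a median of −0.01. A miR-16 match was held by 19 of the 32 lower ones with a 3′UTR and by 61 of the 176 others. SLC6A17 (1.76 ± 0.16), SLC18B1 (1.27 ± 0.053), SLC9A7 (1.06 ± 0.18), and SLC5A3 (1.02 ± 0.065) were high. Among 427 ZNF genes, 41 were below −0.5 (9.6%, near the share of all genes) and 18 above 0.5 (4.22%), with a median of −0.02. Those named ran from ZNF732 (−0.89 ± 0.17), ZNF622 (−0.85 ± 0.077), and ZNF90 (−0.84 ± 0.14) to ZNF32 (0.92 ± 0.10). Replication-dependent histone genes, whose messages mostly lack a polyA tail, were above 0.5 in 6 of 22 cases (27.3%) and below −0.5 in 3 (13.6%), with a median of 0.32. Only 6 of the 22 had at least 100 reads, and these shares were near those of the lowest 25% of all genes (24% and 13%). HIST1H1C was at −0.94 ± 0.092 and HIST3H2A at 0.73 ± 0.14.

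Of 11 cytokines, chemokines, and NF-kappaB genes, 4 were above 0.5 and 1, TNFAIP3 (−1.13 ± 0.22), below −0.5 (median 0.42). These are 36.4% and 9.09%, against 10.4% and 8.96% of all genes, and 8 of the 11 had at least 100 reads. IL1RAP (1.29 ± 0.088) and ICAM1 (0.60 ± 0.032) were among the higher genes, and IL24 (3.68) and CXCL8 (1.01) had under 100 reads. Among 27 long non-coding RNAs, 3 were below −0.5 (11.1%, near the 8.96% of all genes) and 1 above 0.5 (3.7%, against 10.4%), with a median of 0.11. SNHG12 was at −0.62 ± 0.15 and DANCR at 0.53 ± 0.058. SNHG20, of the 17 small nucleolar RNA host genes, was at 0.86 ± 0.15. The 7SL RNAs of the signal recognition particle were lower at 48 h (RN7SL2 −1.0 ± 0.14, RN7SL5P −0.60 ± 0.24), but RN7SL2 was higher with miR-16 by 3.47 at 24 h. They are near-identical copies that can share reads.

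The 0 h library shows on which side of it each 48 h library lay. Both 48 h libraries share this reference, so their values are set side by side. For the 969 genes below −0.5 with at least 100 reads, the median against 0 h was −0.66 with miR-16 and 0.06 with miR-CTR. The miR-16 library was more than 0.5 under 0 h for 581 of them (60.0%), the miR-CTR library more than 0.5 over 0 h for 215 (22.2%), and neither held for 182. For 138 genes (14.2%), the level with miR-16 was at or over that at 0 h. For the 828 genes above 0.5 with at least 100 reads, the medians against 0 h were 0.54 with miR-16 and −0.22 with miR-CTR. Here the miR-16 library was more than 0.5 over 0 h for 438 (52.9%) and the miR-CTR library more than 0.5 under 0 h for 271 (32.7%), and 159 (19.2%) had a miR-16 level at or under 0 h. Past 1 log2 unit, the miR-CTR library lay more than 0.5 under 0 h for 80 of 147 higher genes (54.4%), CTGF, CYR61, ITIH3, and SLC16A6 among them, and the miR-16 library more than 0.5 over 0 h for 94 (63.9%). Mitosis genes had medians of −0.95 with miR-16 and −0.21 with miR-CTR, and replication genes of −1.01 and −0.26. Thus both mimics lay under 0 h for these groups.

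**Figure D4:**
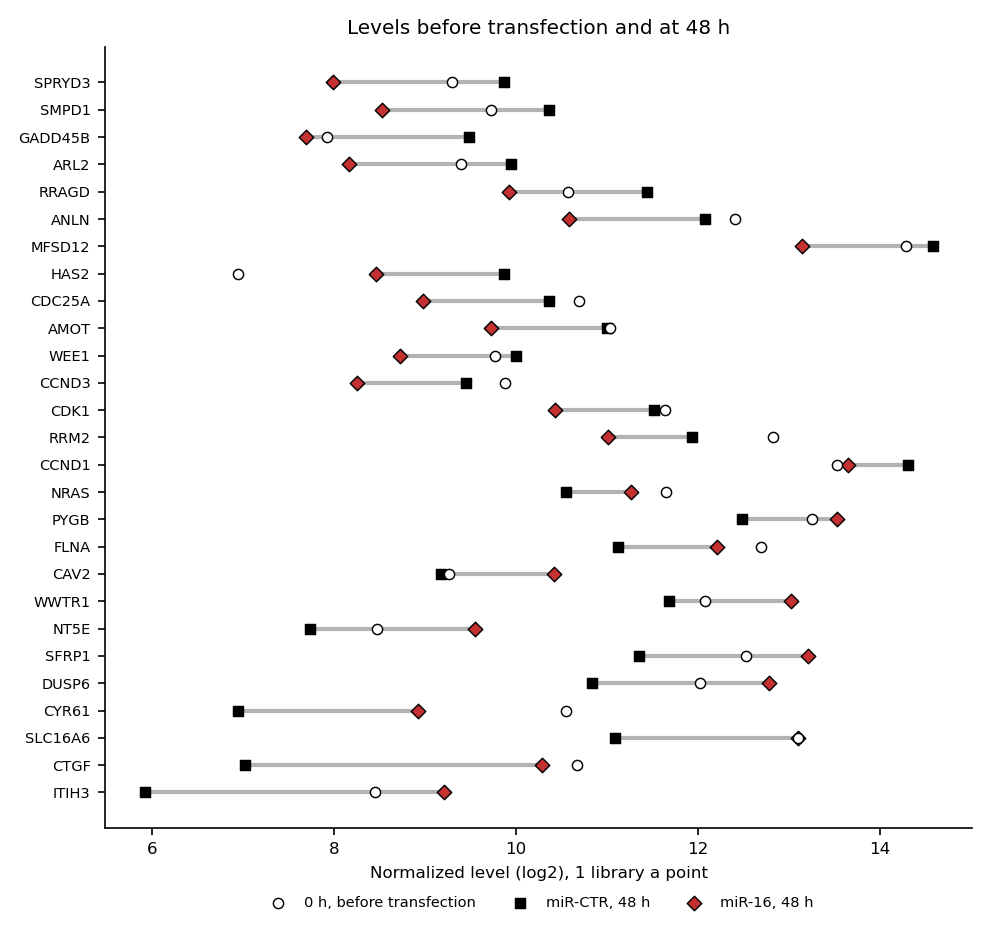
Normalized level (log2, horizontal axis) of 27 genes before transfection (open circles) and at 48 h with miR-CTR (squares) or miR-16 (diamonds), 1 library per point and a grey line between the 48 h levels, ordered by difference. The circle lies between both 48 h points for SPRYD3, SMPD1, and ARL2 and for SFRP1 and DUSP6, near the diamond for CCND1 and SLC16A6, and to the right of both for CYR61 and NRAS.

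The libraries at 24 h are separate from those at 48 h. At 24 h, 781 genes (5.26%) were below −0.5 and 1075 (7.24%) above 0.5. Of the 969 genes below −0.5 at 48 h with at least 100 reads, 909 (93.8%) were below 0 at 24 h and 309 (31.9%) below −0.5, while 5 were above 0.5. Of the 828 genes above 0.5, 791 (95.5%) were above 0 at 24 h, 308 (37.2%) above 0.5, and none below −0.5. Over the lower genes the median was −0.38 at 24 h against −0.69 at 48 h. Over the higher genes it was 0.42 against 0.69. Genes chosen for their size at 48 h tend to be smaller at any other time.

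Genes with and without a match took different courses, which was not tested. Of the 443 genes below −0.5 at 48 h with a miR-16 match, 228 (51.5%) had passed −0.5 at 24 h, and their medians at 12, 24, and 48 h were −0.32, −0.52, and −0.71. Of the 559 without a match, 102 (18.2%) had done so, and their medians were −0.13, −0.30, and −0.70. Reported targets already had a median of −0.54 at 24 h (−0.78 at 48 h), with AMOT at −1.25 and SPRYD3 at −1.50. Mitosis genes went from −0.26 to −0.79, replication genes from −0.18 to −0.68, and checkpoint genes from −0.12 to −0.59. At 24 h, CDK1 was at −0.37, AURKB at −0.18, GINS2 at −0.01, and RRM2 at −0.31. Of the 57 mitosis genes, 2 were below −0.5 at 24 h and 46 at 48 h, and of the 48 replication genes 2 and 33. FLNA (0.26 at 24 h and 1.09 at 48 h), ITIH3 (1.00 and 3.29), and TMEM178B (0.45 and 1.94) were the higher counterparts, whereas PYGB (0.87 and 1.05) was nearly as high at 24 h and CAV2 (1.27 and 1.24) slightly higher.

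**Figure D5:**
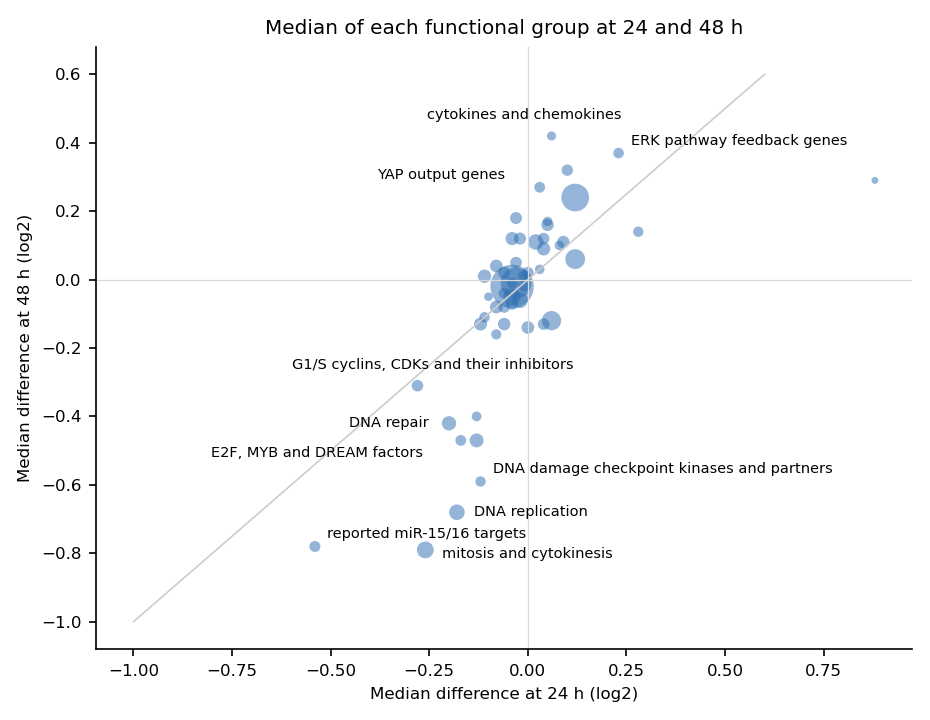
Median difference between miR-16 and miR-CTR of each functional group at 24 h (log2, horizontal axis) and 48 h (log2, vertical axis), with circle area growing with the number of measured members and a grey line of equal values. Shown are 52 groups, and the 7SL RNA group (3.47 at 24 h and −1.0 at 48 h) lies outside the axes. The groups of replication, mitosis, and checkpoint genes lie far under the line, and the reported targets (−0.54 and −0.78) lie nearer to it.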

How the data were processed

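RNA from MP41 cells was sequenced by the authors, with 1 library per condition. Per the labels' processing notes, FastQC, STAR 2.4.0a, featureCounts, and Subread 1.5.0-p3 were used with hg38 (GRCh38). The authors deposited normalized log2 values with 2 decimals for 14839 genes. How they were normalized and filtered is not given in the sources used here. From the values, each is log2(reads / size factor + 1): on the linear scale, 100% of low values (up to 15) equalled a whole number of reads times 1 fixed amount per library, to the rounding of the file. Dividing by that amount gave the reads, which for high values are exact only to the rounding. No value was renormalized, and no test on counts was run.

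The difference at 48 h was the miR-16 minus the miR-CTR value, and a gene past 0.5 in size was called. The counting SE and the 95% interval came from the reads of both libraries. The calls, the reads, and the intervals were tested on simulated data.

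The members of the groups and the lists were chosen with earlier results of these data known. Lists made by a name pattern were kept to protein-coding genes by annotation, except pseudogene, 7SL, small nucleolar host, and histone lists, and related families were taken out (such as TUBGCP genes from tubulins and NDUFAF genes from the respiratory chain). This was done after the files were seen. The genes named were the 15 lowest and 15 highest differences among genes with at least 100 reads in either 48 h library, all members past 0.5 of the reported targets and the G1/S list, and up to 6 members of every other list that were past 0.5 with at least 100 reads, by size. In lists with under 10% of members past 0.5, the 2 members with the highest mean values were added, and PYGB, DLEU2, and SMC4 were included. This made 230 genes, of which the text gives most, and some items are not reported here. The remaining members of short lists (CDK6, BCL2, VEGFA, BMI1, YAP1, IGFBP3, IL24, and CXCL8), PRIM1, CDC6, and RN7SL4P were named after their values were seen.

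Of the 14839 symbols, 13524 (91.14%) were matched to 1 gene of GENCODE version 29, 539 of them by an older symbol from a list of gene names or from RefSeq. Protein-coding genes numbered 12050, of which 12007 had a 3′UTR. Seed matches were exact, in the longest annotated 3′UTR of a gene. Sequences of microRNAs and promoters came from RefSeq (GRCh38.p14). The 3′UTR windows of reported targets and lowest genes were picked from those found, and the control-match windows after the values were seen. The analysis ran in Python 3.11.15 with matplotlib 3.10.9, scipy 1.17.1, numpy 2.4.6, and pandas 2.3.3. Alternatives covered the normalization, the pseudocount, filters on low values, the threshold, the type of match, and the reference library.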

Additional observations from a re-analysis of the deposited data

Results flagged for a closer look

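Of all genes, 74 had a difference between miR-16 and miR-CTR past 0.5 in opposite directions at 24 and 48 h. Among the named genes and list members with at least 100 reads in a library of either time, there were 4. With 1 library per condition, the change between the times was not tested. The 7SL RNAs moved together, RN7SL2 from 3.47 at 24 h to −1.0 at 48 h, RN7SL4P from 3.66 to −1.32, and RN7SL5P from 1.75 to −0.60. They are near-identical copies that can share reads. COL11A2 went from 0.60 at 24 h to −0.67 at 48 h.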

How the results depend on the processing

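Quantile normalization, centring on the median gene, scaling by total reads, a pseudocount of 10, a threshold of 1.5-fold, calls restricted to counting intervals without 0, and (chosen after seeing the data) leaving out pseudogenes and unmatched symbols each left both counts of called genes within 1.5 times and, where they were run on list medians and named genes, reversed none. Quantile normalization moved 15 of the 230 named genes and 1 of 53 list medians, centring 3 named genes, scaling by total reads 4, and the pseudocount 1 by more than the 95% counting interval (for the list, the spread of its members). The median of all genes shifted by at most 0.01. With a threshold of 1 log2 unit, 176 genes were lower and 357 higher, and the share of the higher genes with a miR-16 match was 19.6%. Without the lowest 25% of genes by mean expression, 848 were lower and 649 higher, the share of higher genes with a control match was 27.7%, and the median of the small RNA genes of RNA polymerase III, then 1 gene, was −1.0 (0.29 for 3 genes before). With at least 100 reads, 828 were higher. The shares depended on the matches counted. Counting only the 8mer, both longest types, or the 6mer too, miR-16 matches were held by 11%, 38.5%, and 57.7% of lower and 2.47%, 18.9%, and 40.2% of higher genes, and control matches by 1.2%, 5.79%, and 21.3% of lower and 4.57%, 11.6%, and 36.6% of higher genes.

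With the 0 h library in place of miR-CTR, 2398 genes were lower and 2733 higher. A miR-16 match was then held by 35.6% of the lower genes, and a control match by 15.6% of the lower and 11.8% of the higher genes. This reversed the medians of p53 targets (−0.05), YAP output genes (−0.56), fatty acid synthesis (0.20), the unfolded protein response (−0.37), actin and focal adhesion genes (−0.12), cytokines (−0.17), histones (−0.32), and the nuclear respiratory chain (0.16). Another 18 list medians moved by more than the spread of the members, and 27 did not. Of the 230 named genes, 156 moved by more than the counting interval, 37 stayed within it, and 37 past 0.5 were reversed. The reversed genes were COL25A1 (0.91), C20orf26 (0.86), HAS2 (1.51), CCND1 (0.12), HERC6 (0.11), DDX60 (0.41), RNF43 (0.36), MREG (0.03), EPM2A (0.07), PFKFB4 (0.41), PDK1 (0.34), INSIG1 (0.95), FASN (0.02), SLC17A5 (0.20), COL9A1 (1.46), and COL11A2 (0.50), and, in the other direction, CTGF (−0.38), PRICKLE1 (−0.09), CYR61 (−1.62), TMEM178B (−0.33), SLC16A6P1 (−0.04), FAS (−0.39), IRF7 (−0.21), JUN (−1.08), NRAS (−0.38), WWC1 (−0.10), HTR2B (−0.71), NDRG1 (−0.12), VLDLR (−0.56), XBP1 (−0.11), EDEM3 (−0.24), CANX (−0.79), LAMTOR3 (−0.57), PRMT5 (−0.32), FLNA (−0.48), IL1RAP (−0.29), and SLC6A17 (−0.25). This comparison includes the change with time and transfection, and the cause was not tested. No paired analysis was possible because each condition had 1 library, and no replicate could be left out for the same reason. The variation between cultures could not be measured, and few reads limit weakly expressed genes further.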
